A study of Mus musculus with 8 samples.

Results

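Elastic fibres were followed here through 10 genes: elastin (Eln), the fibrillins Fbn1 and Fbn2, the microfibril-associated genes Mfap2, Mfap4 and Mfap5, the fibulins Fbln1, Fbln2 and Fbln5, and Emilin1. They were picked out by gene symbol. All 10 were found among the 46517 genes of the count table, and all 10 were among the 16469 genes that passed the filter on low counts and were tested.

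An elastic fibre has a core of cross-linked elastin laid onto a scaffold of microfibrils. The microfibrils are polymers of fibrillin that carry smaller glycoproteins along their length, and fibulins and EMILIN-1 link elastin to the scaffold, to cells and to the basement membrane. Fibrillin microfibrils also hold latent growth factors of the TGF-beta and BMP families, and in embryonic ducts these fibres are made mainly by the mesenchyme and smooth muscle around the epithelium.

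RNA was measured by sequencing in epididymal ducts, which form from the Wolffian duct, taken from mouse embryos at E18.5. The 4 control libraries (numbered 1, 3, 4 and 6) had the genotype Ptk7 +/flox, with 1 intact and 1 loxP-flanked allele. The 4 libraries labelled conditional knockout, or cKO (numbered 1, 2, 4 and 5), had Ptk7 Xst87/flox, the floxed allele over the disrupted Xst87 allele. Both groups carried a T-Cre transgene and the mT/mG reporter, so the controls carried Cre and a floxed allele too. T-Cre expresses Cre from the promoter of T (Brachyury), which is active in early mesoderm, so the deletion is not limited to 1 cell type of the duct. PTK7 is a membrane pseudokinase of the planar cell polarity pathway, and the title of the study names matrix assembly in the mesenchyme around the duct. Whether each library is a separate embryo or litter is not in the labels. The p-values therefore measure only how these libraries scatter, which may be technical.

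Libraries held 24807970 to 29590547 counts, and 2 of them stood apart. Ptk7 was at 113 to 313 CPM (read counts normalised to library size with TMM factors) in controls and at 7.33 to 12.5 CPM in the libraries labelled cKO 1, 2 and 4, but at 194 CPM in the library labelled cKO 5. That library kept Ptk7 at the control level against its label, so every comparison below is between labels, and the fits, list counts and ratios were repeated without it. Control 3 had lower levels of genes of high GC content than the other libraries. Its log2 deviation from the mean of the other 7 libraries correlated with transcript GC content across 16412 genes at r = -0.416, against 0.0167 to 0.153 for the other libraries, as a description over genes that are not independent. Mitochondrial genes took 3.47% of the counts in control 3 and 1.82% in the library labelled cKO 5, with 2.37% to 2.64% in the rest.

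Per unit of length, the glycoproteins Mfap2 and Mfap4 led the group in controls, the fibrillins came near the end and the glycoprotein Mfap5 came last. RPKM (CPM divided by the kilobases of summed exon length) averaged 563 ± 34.5 for Mfap2, 437 ± 43.3 for Mfap4 and 100.05 ± 5.60 for Fbln1 (SD, n = 4). Emilin1 followed at 92.4 ± 34.1 and Eln at 91.5 ± 36.4. The ranges of Fbln1, Emilin1 and Eln overlapped, so the order of these neighbours is not set by the data. Below them came Fbln5 at 23.6 ± 2.71 RPKM, Fbln2 at 22.9 ± 1.72, Fbn2 at 20.4 ± 3.90 and Fbn1 at 19.5 ± 3.40, each overlapping the next. Mfap5 was lowest at 4.54 ± 0.345 RPKM. Breaks between neighbours, with no overlap over the 4 controls, lay between Mfap2 and Mfap4, between Mfap4 and Fbln1, between Eln and Fbln5, and between Fbn1 and Mfap5.

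The length used moved several of these levels. With the length of a single coding transcript in place of all exons, Mfap4 led at 895 RPKM, ahead of Mfap2 at 635. On that scale Eln stood at 192, Fbln5 at 58.0 and Mfap5 at 10.8 RPKM, while Fbn1 (19.8) and Fbn2 (19.4) stayed near their former values. The order of Mfap2 and Mfap4 therefore changed with the length chosen. Fbn1 (SD 3.44) and Fbn2 (SD 3.70) overlapped on this length too, so their order is not set by the data. By its mean Eln (SD 76.5) came ahead of Fbln1 (119) and Emilin1 (118). In control 3, however, Eln stood at 83.7 RPKM, while Fbln1 was at 105.7 or more in every library.

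**Figure D1:**
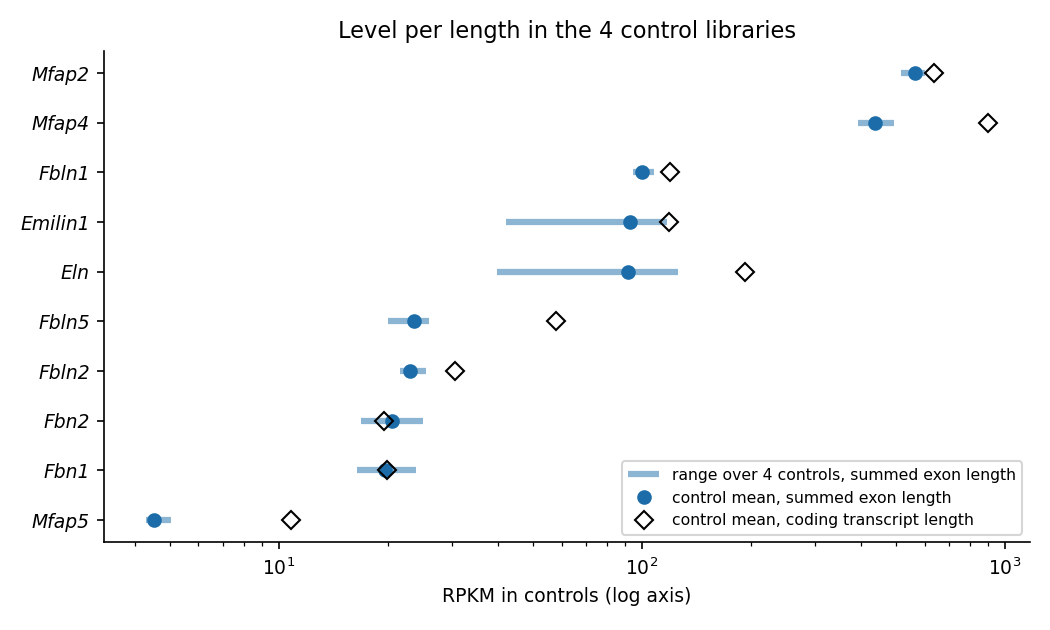
Level per length of the 10 genes in the 4 control libraries, in RPKM on a log axis, with bars for the range over controls and open diamonds for the mean on coding transcript length. Mfap2 and Mfap4 lie far to the right of the fibrillins, Mfap5 is lowest on both lengths, and the bars of Eln and Emilin1 are the widest.

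Elastin, the core of the fibre, was the member that varied most between libraries, with a coefficient of variation of 30.5% over all 8. Much of that spread came from control 3: the SD over controls was 295 CPM with it and 116 CPM over the other 3 controls. Eln (ENSMUSG00000029675; GRCm38 chromosome 5, 134702593 to 134747323, minus strand) stood at 825, 322, 804 and 1014 CPM in controls 1, 3, 4 and 6. In the libraries labelled cKO 1, 2, 4 and 5 it stood at 791, 1192, 744 and 961 CPM. Control 3 lay below every other library at 36.6% of the mean of the other 3 controls, and the other 7 libraries overlapped between the labels. The means were 741 ± 295 and 922 ± 203 CPM (SD, n = 4 each), a log2 fold change of 0.32 (SE 0.29, 95% interval -0.32 to 0.95, edgeR adjusted p = 0.788). Without control 3 the log2 fold change was 0.067, with an interval of -0.28 to 0.41, so most of the difference between the means came from that 1 library. Without the library labelled cKO 5 it was 0.30.

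Emilin1, a glycoprotein at the interface of elastin and microfibrils, had the same outlying library. Emilin1 (ENSMUSG00000029163; chromosome 5, 30913402 to 30921277, plus strand) stood at 579, 208, 500.3 and 536 CPM in controls 1, 3, 4 and 6. It stood at 473, 584, 524 and 639 CPM in the libraries labelled cKO 1, 2, 4 and 5. Control 3 was at 38.6% of the mean of the other controls, and the groups overlapped. The log2 fold change was 0.28 (SE 0.26, 95% interval -0.28 to 0.85, edgeR adjusted p = 0.786), and without control 3 it was 0.044, with an interval of -0.19 to 0.27. On this measure, too, the difference between labels was mostly the low value of 1 control.

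Eln and Emilin1 have the coding sequences richest in GC among the 10 genes, at 62.6% and 61.7%. The next were Mfap2 at 58.6%, Fbln2 at 58.4% and Mfap4 at 58.2%, and the lowest were Fbn1 at 51.7% and Mfap5 at 51.6%. To show what that composition looks like, the 60 coding bases with the highest GC content, starting at a codon, are given for both outlying genes and for Fbn1, which was not low in control 3. The sequences are GRCm38 transcripts as annotated in GENCODE M21, written 5′ to 3′ on the coding strand, and capitals mark G and C.
Eln, coding bases 301 to 360: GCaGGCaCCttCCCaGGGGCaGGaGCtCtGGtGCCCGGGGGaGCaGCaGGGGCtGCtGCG
Emilin1, coding bases 2320 to 2379: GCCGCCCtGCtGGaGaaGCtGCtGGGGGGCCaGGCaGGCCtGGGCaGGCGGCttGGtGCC
Fbn1, coding bases 640 to 699: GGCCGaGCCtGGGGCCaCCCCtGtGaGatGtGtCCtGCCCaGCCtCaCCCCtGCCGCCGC

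The peak of GC was alike in these genes, and what differed was how often such stretches occur. The windows held 75.0% GC in Eln and Fbn1 and 76.7% in Emilin1. In Eln, 74 of 841 such windows (8.80%) reached 70% GC, and in Emilin1 86 of 998 (8.62%) did. In Fbn1 16 of 2854 (0.561%) reached it. Mfap4 came next after Emilin1 at 6.87%, and it was not low in control 3.

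GC content and the position of control 3 moved together over all genes, and Eln and Emilin1 deviated by more than the median of genes of like GC content. Genes with a transcript GC content of 55% to 60% had a median log2 deviation of -0.27 in control 3, and those of 60% to 65% had -0.55. Eln deviated by -1.47 and Emilin1 by -1.39 on the same scale. After subtracting the median deviation of genes of like GC content, which was an alternative added after the data were seen, -1.09 remained in Eln and -0.81 in Emilin1. Mfap2, with a transcript GC content of 59.6% beside 58.8% for Eln, deviated by 0.12 before and 0.50 after that step. The part of RNA quality in these values was not tested.

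**Figure D2:**
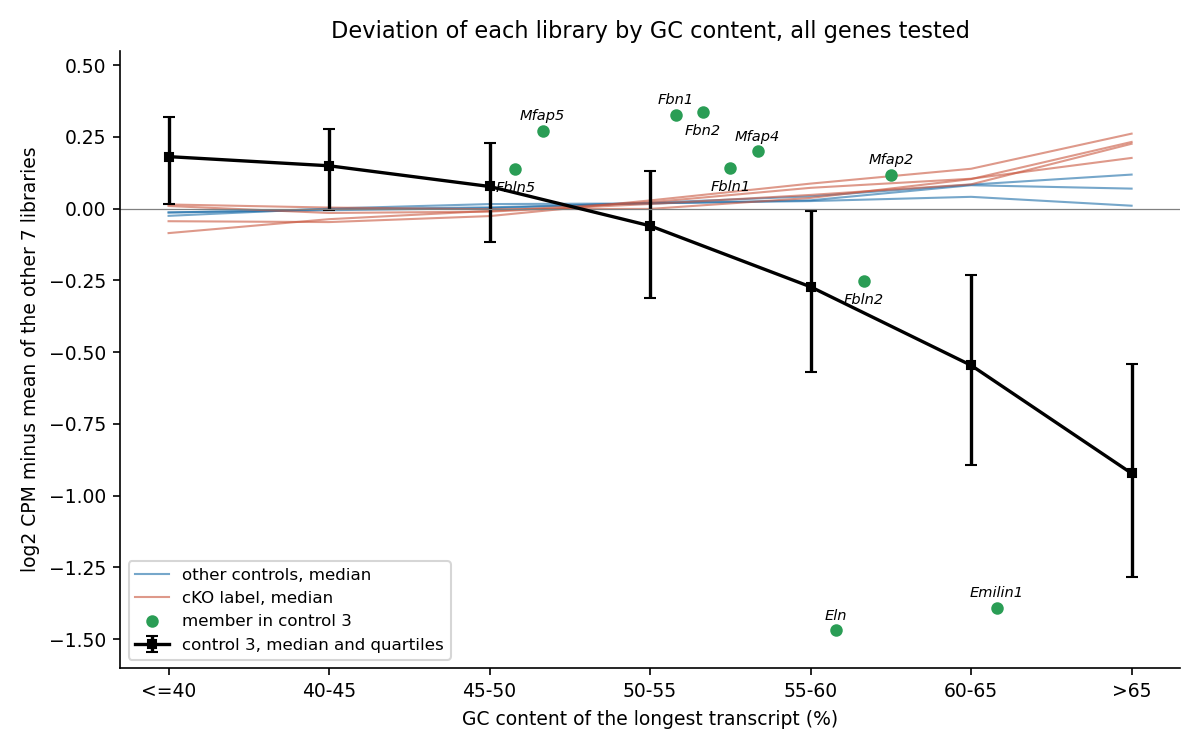
Deviation of log2 CPM in each library from the mean of the other 7, as medians over all tested genes in bins of transcript GC content, with quartile bars for control 3 and green points for the 10 genes in control 3, set to the right of their bin's centre. The black line of control 3 drops from 0.18 in the lowest bin to -0.92 in the highest while the medians of the other libraries lie between -0.085 and 0.26, and Eln and Emilin1 lie well under it.

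The fibrillins, which build the microfibril itself, were at nearly the same level per length as each other in every library. Fbn1 (ENSMUSG00000027204; chromosome 2, 125300594 to 125507993, minus strand) encodes the main fibrillin of adult tissue. It stood at 249, 289.7, 199 and 210.3 CPM in controls 1, 3, 4 and 6, and at 236, 243, 222 and 264 CPM in the libraries labelled cKO 1, 2, 4 and 5. The controls spanned the whole cKO range, and control 3 was highest, the reverse of its place for Eln. This gave a log2 fold change of 0.027 (SE 0.12, 95% interval -0.23 to 0.29, edgeR adjusted p = 0.962). Without the library labelled cKO 5 it was -0.018, and without control 3 it was 0.14.

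Fbn2 (ENSMUSG00000024598; chromosome 18, 58008623 to 58209926, minus strand) encodes the fibrillin prominent in embryonic tissue. It stood at 236, 261, 184 and 176 CPM in controls 1, 3, 4 and 6. In the libraries labelled cKO 1, 2, 4 and 5 it stood at 202, 215, 194 and 246 CPM. Again the controls spanned the cKO range with control 3 on top. The difference on the log2 scale was 0.0018 (SE 0.13, 95% interval -0.29 to 0.29, edgeR adjusted p = 0.997). Leaving out the library labelled cKO 5 gave -0.070. The span of Fbn2 in the table differs from that in GENCODE M21, the only member for which it does.

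Among the glycoproteins that bind fibrillin, Mfap2 (MAGP-1) was the steadiest of all 10 genes, with a coefficient of variation of 5.43% over the 8 libraries. Mfap2 (ENSMUSG00000060572; chromosome 4, 141010418 to 141015984, plus strand) stood at 684, 729, 627 and 687 CPM in controls 1, 3, 4 and 6. In the libraries labelled cKO 1, 2, 4 and 5 it stood at 685, 726, 640.2 and 656 CPM. The cKO range lay inside the control range. Its log2 fold change was -0.011 (SE 0.075, 95% interval -0.18 to 0.16, edgeR adjusted p = 0.977), and it was -0.15 with the GC offsets.

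Mfap4, a fibrinogen-related protein that binds both elastin and microfibrils, overlapped between the labels too. Mfap4 (ENSMUSG00000042436; chromosome 11, 61485431 to 61488900, plus strand) stood at 805, 950.0, 755 and 854 CPM in controls 1, 3, 4 and 6. It stood at 862, 949.9, 813 and 763 CPM in the libraries labelled cKO 1, 2, 4 and 5, with the cKO range again inside that of controls. The log2 difference was 0.011 (SE 0.095, 95% interval -0.20 to 0.22, edgeR adjusted p = 0.984). Mfap4 shares 89 exon bases with Mapk7 on the opposite strand, whose summed counts were 7.92% of those of Mfap4. The strand setting is not given in the sources used here, so reads in that stretch cannot be told apart. Eln and Fbn1 likewise share 267 and 2442 exon bases with Gm30003 and Gm9913, whose counts were 0.1045% and 0.0918% of theirs.

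Mfap5 (MAGP-2), the other small glycoprotein of this pair, was low throughout. Mfap5 (ENSMUSG00000030116; chromosome 6, 122505845 to 122529290, plus strand) stood at 16, 18.1, 15.6 and 15.5 CPM in controls 1, 3, 4 and 6. It stood at 15.4, 18.2, 10.7 and 14.9 CPM in the libraries labelled cKO 1, 2, 4 and 5. The library labelled cKO 4 lay below the rest, on 279 counts, and the groups overlapped. Between the labels the log2 fold change was -0.14 (SE 0.15, 95% interval -0.46 to 0.18, edgeR adjusted p = 0.808). It was -0.012 without the library labelled cKO 4, so nearly all of the difference came from that 1 library.

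Of the fibulins, Fbln1, which binds fibronectin and basement membrane proteins and is found within elastic fibres, had overlapping groups. Fbln1 (ENSMUSG00000006369; chromosome 15, 85205949 to 85286535, plus strand) stood at 428, 471, 435 and 413 CPM in controls 1, 3, 4 and 6. It stood at 387, 442, 401 and 491 CPM in the libraries labelled cKO 1, 2, 4 and 5. The library labelled cKO 5 was the highest of all 8 and the one labelled cKO 1 the lowest. On the log2 scale the fold change was -0.023 (SE 0.089, 95% interval -0.22 to 0.17, edgeR adjusted p = 0.958). It was -0.092 when the library labelled cKO 5 was left out.

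Fbln2, a large fibulin that binds elastin, fibrillin and basement membrane proteins, was the only member with an unadjusted p under 0.05. Fbln2 (ENSMUSG00000064080; chromosome 6, 91212455 to 91272540, plus strand) stood at 162, 138, 140.1 and 145 CPM in controls 1, 3, 4 and 6. It stood at 142, 199, 159.7 and 214 CPM in the libraries labelled cKO 1, 2, 4 and 5. The libraries labelled cKO 2 and cKO 5 lay above every control, while those labelled cKO 1 and cKO 4 lay within the control range. The means were 146 ± 10.97 and 179 ± 33.2 CPM (SD, n = 4 each), a log2 fold change of 0.29 (SE 0.12, 95% interval 0.017 to 0.56). This did not pass adjustment over all genes (edgeR adjusted p = 0.567, DESeq2 adjusted p = 0.427). Without the library labelled cKO 5, which kept Ptk7, the log2 fold change was 0.19, with an interval of -0.066 to 0.46.

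Fbln5, which guides elastin onto microfibrils and binds integrins and lysyl oxidase-like enzymes, scattered within the cKO label. Fbln5 (ENSMUSG00000021186; chromosome 12, 101746565 to 101819055, minus strand) stood at 135, 148, 151 and 116 CPM in controls 1, 3, 4 and 6. In the libraries labelled cKO 1, 2, 4 and 5 it stood at 143, 127, 105 and 173 CPM. The highest and the lowest of all 8 libraries both carried the cKO label. The fold change was -0.0078 on the log2 scale (SE 0.14, 95% interval -0.32 to 0.31, edgeR adjusted p = 0.992). Without the library labelled cKO 5, which had the highest value, it was -0.14.

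**Figure D3:**
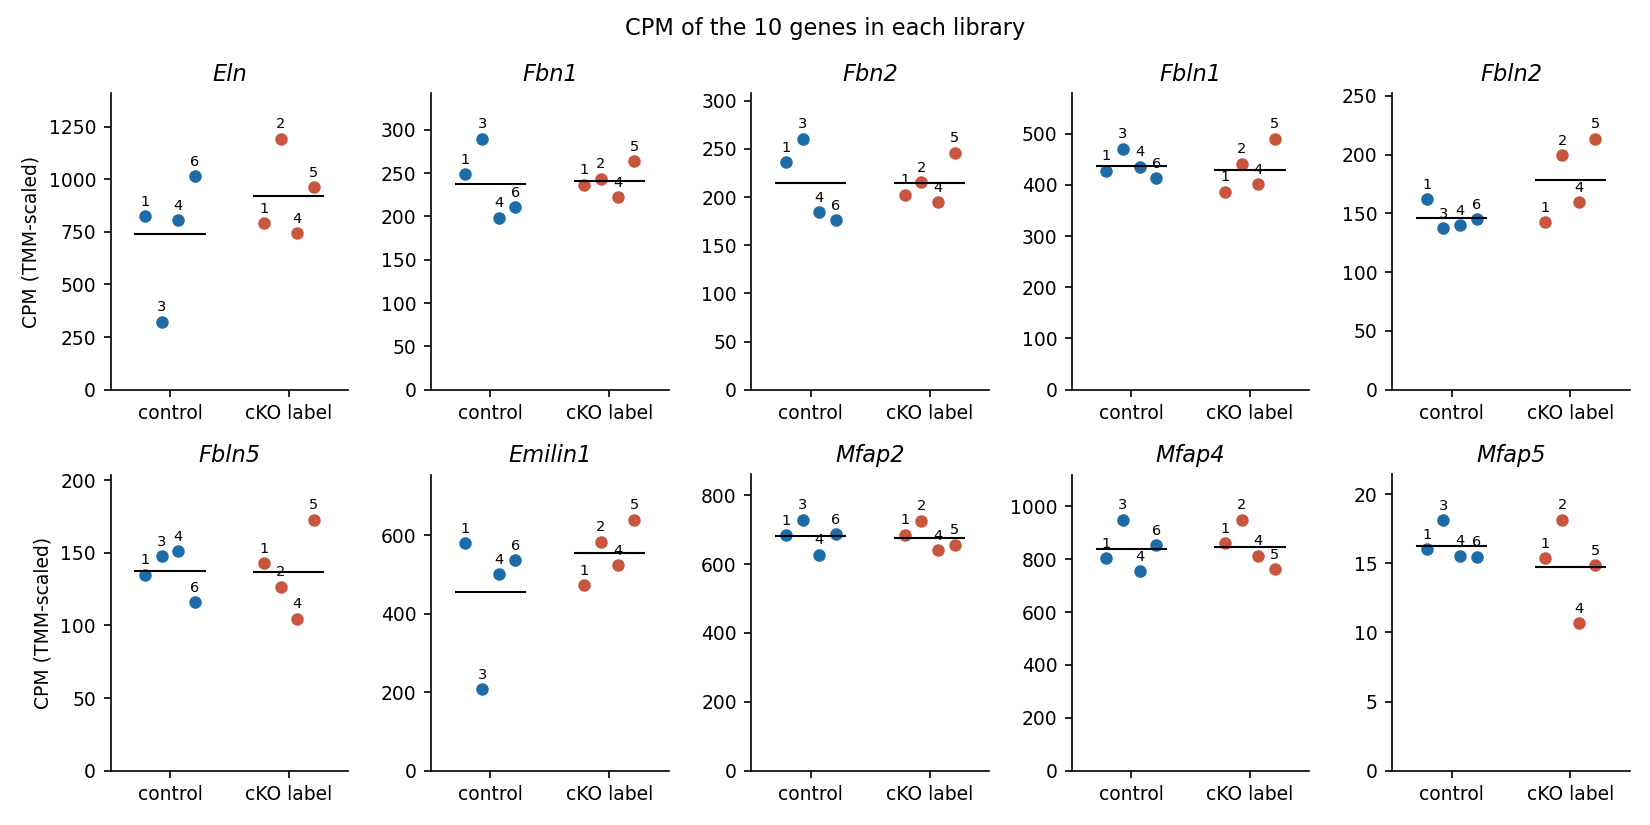
CPM of the 10 genes in each library, numbered as in the labels, with a line at the mean of each group and a vertical axis from 0. The groups overlap in every panel, control 3 lies alone at the bottom for Eln and Emilin1, and 2 libraries labelled cKO lie above all controls for Fbln2.

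The comparison of the labels asks whether transcripts of elastic fibre components differ between the groups as labelled. With all 8 libraries it is not a comparison of ducts with and without Ptk7, because the library labelled cKO 5 kept it. Ptk7 itself was not called there (log2 fold change -1.82, edgeR adjusted p = 0.655). None of the 10 genes passed an adjusted p of 0.05 in edgeR's quasi-likelihood test, which called 0% of all genes tested. DESeq2 called 0 of the 10 and 1.13% of all genes. At an unadjusted p under 0.05 edgeR had 1 of the 10, Fbln2, against 8.37% of all genes. In 0 of the 10 did the groups lie apart without overlap, against 5.76% of all genes. Their median log2 fold change was 0.0062, with 6 above and 4 below 0, and the median over all genes was 0.0055. The share of members past each threshold was thus near that of the table as a whole. A p that misses the threshold does not show equal levels: with all 8 libraries the intervals of Eln and Emilin1 reach 0.95 and 0.85. Those of Fbn1, Fbn2, Fbln1, Mfap2 and Mfap4 all lie within 0.29 of 0 to 2 decimals in that fit. Other fits gave wider limits. Without the library labelled cKO 5 the interval of Fbn2 reached -0.38, and with the GC offsets that of Mfap2 reached -0.40.

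The count did not grow when the libraries that stood apart were left out. Without the library labelled cKO 5, 0 of the 10 genes had an unadjusted p under 0.05, against 8.74% of all genes, and edgeR's adjusted p called 0 of the 10 against 0.00599% of all genes. Ptk7 itself was the gene called there (log2 fold change -4.42, SE 0.37, edgeR adjusted p = 0.00805). Without control 3, 0 of the 10 had an unadjusted p under 0.05, against 7.06% of all genes. It was also 0 without control 4, control 6 or the library labelled cKO 2, against 7.36%, 9.47% and 7.2% of all genes. With GC offsets on all 8 libraries it was 0 of the 10, against 8.7% of all genes. These are bulk samples, so fewer cells of a type and less RNA per cell cannot be told apart in any of these values.

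**Figure D4:**
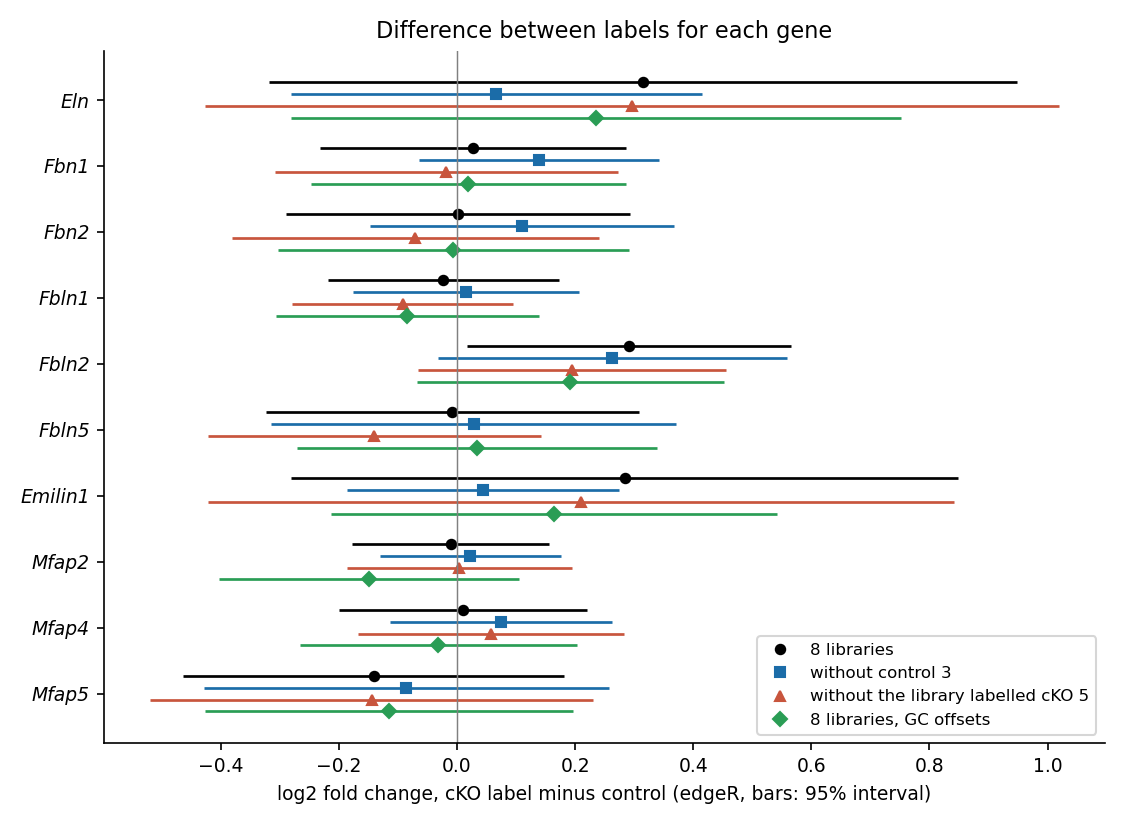
Log2 fold change of the 10 genes, cKO label minus control, from edgeR with 95% intervals, for all 8 libraries, without control 3, without the library labelled cKO 5, and with GC offsets. The intervals cover 0 for every gene and setting except Fbln2 with all 8 libraries (0.017 to 0.56), and those of Eln and Emilin1 narrow without control 3.

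Ratios of members within a library do not depend on how libraries are scaled, and 4 were compared by an exact two-sided permutation test. Its smallest possible p for 4 against 4 is 0.0286. The ratio of Fbn2 to Fbn1 per length lay between 0.968 and 1.10 in all 8 libraries. On the log2 scale it averaged 0.062 ± 0.080 in controls and 0.038 ± 0.053 under the cKO label (SD, n = 4 each, exact permutation p = 0.657, 0.657 adjusted over the 4 ratios). The balance of the pair thus differed by less than the spread between libraries. The ratio of Eln to Fbn1 was 1.67 in control 3 and 4.97 to 7.34 in the other 7 libraries. Its log2 mean was 2.13 ± 0.95 in controls and 2.49 ± 0.26 under the cKO label (SD, n = 4 each, exact permutation p = 0.657, 0.657 adjusted).

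The ratio of Mfap5 to Mfap2 was lowest in the library labelled cKO 4. Its log2 mean was -6.96 ± 0.069 in controls and -7.11 ± 0.25 under the cKO label (SD, n = 4 each, exact permutation p = 0.343, 0.657 adjusted). The log2 difference of -0.15 was -0.031 without that library and -0.0063 with the GC offsets. The ratio of Fbln2 to Fbln1 was 0.259, 0.200, 0.221 and 0.240 in controls 1, 3, 4 and 6. It was 0.253, 0.309, 0.273 and 0.298 in the libraries labelled cKO 1, 2, 4 and 5. The libraries labelled cKO 2, 4 and 5 lay above every control, and the one labelled cKO 1 did not. The log2 difference was 0.30 (exact permutation p = 0.0571, 0.229 adjusted over the 4 ratios), and without the library labelled cKO 5 it was 0.28 (exact permutation p = 0.0857, where 0.0571 is the smallest possible). It did not pass the threshold.

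Over the 8 libraries, the pair that moved together most closely was the fibrillins. Fbn1 and Fbn2 had a Pearson r of 0.955 (exact permutation p = 3.22e-04, 0.0145 adjusted over 45 pairs) and a Spearman rho of 0.976 (exact permutation p = 3.97e-04, 0.0179 adjusted). Leaving out controls 3 and 4, the 2 libraries farthest from the median of Fbn1, gave r = 0.975, and leaving out control 3 alone gave 0.934. Fbn1 and Fbn2 were the only 1 of the 45 pairs to pass in both measures. All r values ranged from -0.550 to 0.955 with a median of 0.251, and 27 of the 45 were positive. The genes of a pair share libraries, depth and scaling factors.

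Other close pairs held less well. Mfap2 and Mfap4 had r = 0.913 and rho = 0.905 (exact permutation p = 0.0686 and 0.0685, both adjusted over 45 pairs), and r = 0.968 without the 2 libraries farthest from the median of Mfap2. Eln and Emilin1 had r = 0.944 and rho = 0.810 (exact permutation p = 0.184 and 0.245, both adjusted). Without control 3 their r was 0.560, and without control 3 and the library labelled cKO 2 it was 0.543, so that relation rests on control 3. Fbln2 and Emilin1 passed by rank alone (rho 0.952, adjusted exact permutation p = 0.0257), with r = 0.579 (adjusted exact permutation p = 0.574). Without control 3 their r was 0.884. Eln, in contrast, had r = -0.521 with Fbn1 and 0.272 without control 3.

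**Figure D5:**
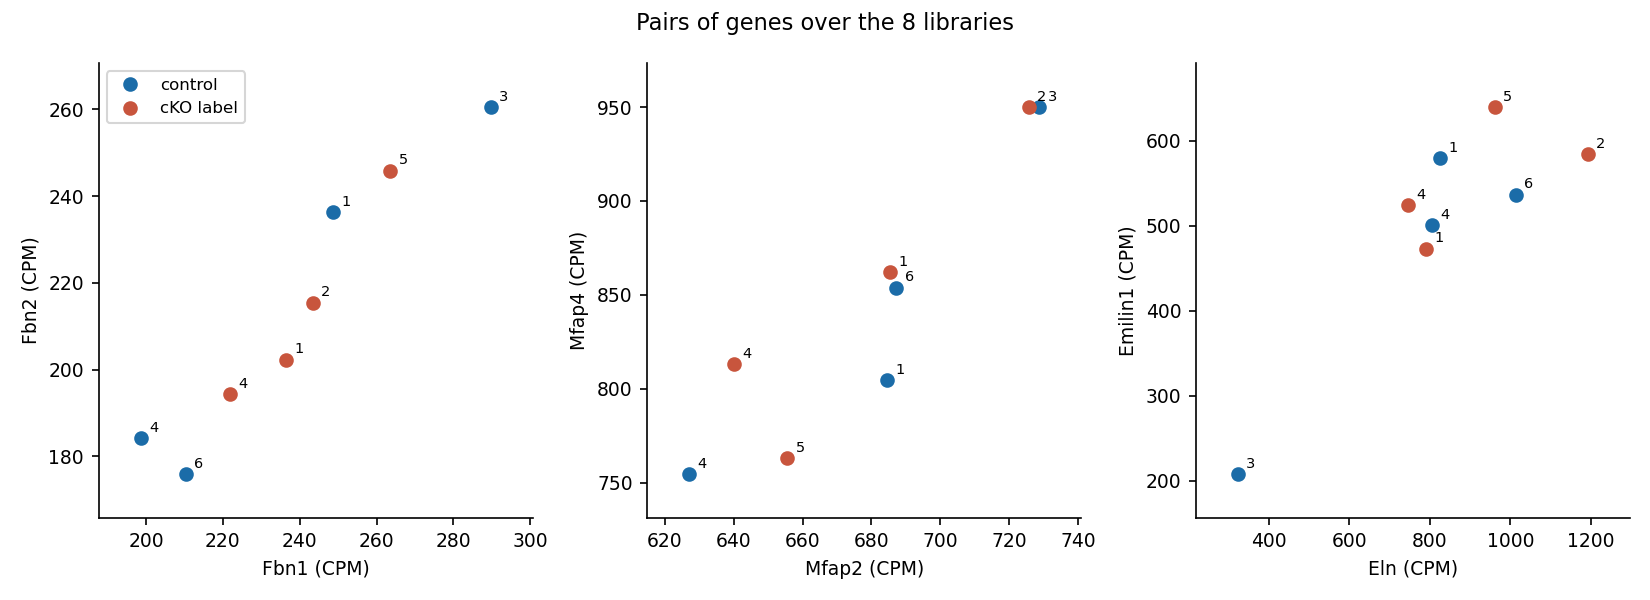
CPM of 3 pairs of genes over the 8 libraries, numbered as in the labels, with controls in blue and the cKO label in red on axes that do not start at 0. Fbn1 and Fbn2 lie along a line with both labels mixed, Mfap2 and Mfap4 less tightly, and in Eln and Emilin1 control 3 alone sits at the lower left.

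The genes most like a member over the 8 libraries were looked up for Eln, Fbn1 and Mfap5 among 10090 genes, by Pearson r of log2 CPM and as a description. For Eln they were Tprgl (0.991), Bsg (0.991) and Nrtn (0.985), and each of these was lowest in control 3. Tprgl, for instance, stood at 87.2 CPM there and at 118 to 142 CPM elsewhere. Emilin1 ranked 76th. For Fbn1 they were Nfib (0.984), Nfe2l2 (0.961) and Klf10 (0.961), with Fbn2 in rank 6. Each of these was highest in control 3, as Fbn1 itself was. For Mfap5 they were Slc24a3 (0.967), Cystm1 (0.966) and Slc46a1 (0.957), each lowest in the library labelled cKO 4, and the best member, Mfap2, ranked 522nd.

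Genes that assemble, bind or cut elastic fibres were taken from 8 lists, and edgeR's adjusted p called none of their members. Counts below are of members with an unadjusted p under 0.05, beside 8.37% of all genes. Among 10 other fibulins, EMILINs and multimerins 1 was higher and 0 were lower, with a median log2 fold change of -0.048. The 1 was Emilin2, a relative of Emilin1, at 9.35 ± 2.85 CPM in controls and 13.4 ± 2.63 under the cKO label (SD, n = 4 each, edgeR adjusted p = 0.552). Mmrn1, a multimerin of platelets and endothelium, stood at 2.76 ± 1.37 and 1.95 ± 0.731 CPM (adjusted p = 0.739).

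Among the 5 lysyl oxidases, which cross-link elastin, 0 were higher and 1 was lower, with a median of -0.027. That was Loxl4, at 2.70 ± 0.463 and 1.76 ± 0.600 CPM (edgeR adjusted p = 0.529), while Loxl3 stood at 39.1 ± 6.78 and 46.8 ± 4.60 CPM (adjusted p = 0.631). The 4 latent TGF-beta binding proteins, relatives of fibrillin, had 0 higher and 1 lower and a median of 0.015. Ltbp2 stood at 46.5 ± 7.15 and 36.3 ± 7.93 CPM (edgeR adjusted p = 0.596), and Ltbp3 at 242 ± 39.8 and 266 ± 35.7 CPM (adjusted p = 0.792). The groups overlapped in all 4 of these genes. For Loxl4, on only 36 to 84 counts per library, the overlap came from the library labelled cKO 5 (2.66 CPM), which kept Ptk7. Without it the libraries labelled cKO stood at 1.38 to 1.53 CPM and controls at 2.03 to 3.09, and the log2 difference was -0.88 (edgeR adjusted p = 0.271, DESeq2 adjusted p = 0.0666). Lox, named after its values were seen, likewise overlapped only through the library labelled cKO 5, at 566 CPM. Its other libraries labelled cKO stood at 404 to 425 CPM and controls at 438 to 486. The protease Ctsl did the same. The share of all genes that separated in this way was not counted, so these separations cannot be read as particular to these genes. Whether they follow Ptk7 was not tested.

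The 10 ADAMTS and ADAMTS-like proteins that bind fibrillin had 1 higher and 0 lower, with a median of 0.13. Adamtsl5 stood at 23.8 ± 2.44 and 29.0 ± 3.01 CPM (edgeR adjusted p = 0.480), and Adamtsl4 at 13.8 ± 2.90 and 16.7 ± 2.86 CPM (adjusted p = 0.693). Of 9 growth factors that microfibrils hold, 1 was higher and 1 lower, and the median was 0.13. Tgfb3 stood at 127 to 131 CPM in controls and 138 to 171 CPM under the cKO label (edgeR adjusted p = 0.508). Its groups did not overlap, as in 5.76% of all genes. Bmp7 stood at 26.97 ± 2.06 and 22.3 ± 3.30 CPM (adjusted p = 0.540).

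Integrins, the cell surface receptors of these proteins, had the most members past the unadjusted threshold, 0 higher and 3 lower of 10, with a median of -0.053. Itgb6, the epithelial beta subunit that activates latent TGF-beta, stood at 2.41, 2.66, 2.05 and 2.21 CPM in controls 1, 3, 4 and 6. It stood at 1.31, 1.07, 1.03 and 1.35 CPM in the libraries labelled cKO 1, 2, 4 and 5, without overlap, as in 5.76% of all genes. Its log2 fold change was -0.97 (SE 0.19), which DESeq2 called (adjusted p = 0.0144) and edgeR did not (adjusted p = 0.162). The library labelled cKO 5 lay with the others of its label although it kept Ptk7. Itga4 stood at 76.0 ± 9.84 and 57.0 ± 7.67 CPM (edgeR adjusted p = 0.300). Itga9, named after its values were seen, stood at 128 ± 8.04 and 114 ± 4.58 CPM (edgeR adjusted p = 0.551).

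Of 10 matrix partners of fibrillins and fibulins, 0 were higher and 1 was lower, with a median of -0.027. Timp3, an inhibitor of metalloproteinases held in the matrix, stood at 293 to 382 CPM in controls and 271 to 288 CPM under the cKO label. Its groups did not overlap, as in 5.76% of all genes (edgeR adjusted p = 0.374). Vcan, the proteoglycan versican, stood at 451 ± 117 and 373 ± 24.8 CPM (adjusted p = 0.682). Of 9 proteases that cleave elastin or fibrillin, 8 were tested, and 0 were higher and 1 was lower, with a median of 0.10. Mmp7 stood at 4.31 ± 1.43 and 2.62 ± 0.842 CPM (edgeR adjusted p = 0.547), and Ctsl at 500.1 ± 39.2 and 449 ± 19.5 CPM (adjusted p = 0.634). With the library labelled cKO 5 left out, the counts of the other fibulins, the growth factors and the proteases were 0 in both directions, and those of the other 5 lists were the same in number.

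Markers of the cell types in the dissected tissue were present, and some moved with the label beside the members. The labelled tissue showed its duct epithelium, with Epcam at a mean of 270.1 CPM and 0 of 12 markers at 0 in any library. The summed level of those 12 markers ran from 1083 to 1231 CPM in controls and from 947 to 1323 under the cKO label. At an unadjusted p under 0.05, 1 was higher and 6 lower, beside 8.37% of all genes in either direction. DESeq2 called 2 of them lower, beside 1.13% of all genes in either direction. Without the library labelled cKO 5, 1 was again higher and 6 lower at that unadjusted threshold. The 12 smooth muscle markers summed to 4024 to 4766 CPM in controls and 3212 to 4031 under the cKO label, with 0 higher and 6 lower, 1 of them called by DESeq2. Those sums overlapped only through the library labelled cKO 5, at 4031 CPM beside 4024 in control 6. The libraries labelled cKO 1, 2 and 4, at 3609, 3764 and 3212 CPM, lay below every control. Without the library labelled cKO 5 the lower markers were 8 of 12, beside 8.74% of all genes in either direction. The 12 markers of mesenchyme and fibroblasts summed to 17015 to 21936 and 19027 to 24408 CPM, with 0 higher and 1 lower. The sums for mesenchyme, which with smooth muscle makes elastic fibres, overlapped between the labels. Col1a1, Col1a2 and Col3a1, at control means of 4575, 4887 and 5197 CPM, made up most of that sum. Acta2, at 2286 CPM in controls, was the largest part of the smooth muscle sum.

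No marker found on any list was at 0 in all libraries. The 9 mesothelial markers found summed to 547 to 664 CPM in controls and 604 to 840 under the cKO label. Of them 4 were higher and 0 lower, beside 8.37% of all genes, and DESeq2 called 3 higher, beside 1.13%. For endothelium the sums were 456 to 520 and 417 to 574 CPM, for pericytes 306 to 376 and 314 to 391, and for macrophages 183 to 283 and 241 to 330. The markers higher at an unadjusted p under 0.05 were 0 of 10, 1 of 6 and 1 of 8, and 0 were lower. For neurons and Schwann cells the sums were 56.4 to 76.9 and 66.2 to 108 CPM, and for erythroid cells 794 to 2267 and 1362 to 3963, with 1 marker called higher by DESeq2. In each of these lists 2 of the 6 tested were higher and 0 lower. Without the library labelled cKO 5 the higher markers were 3 for mesothelium, 2 for neurons and Schwann cells and 1 for erythroid cells. They were 1 for macrophages and 0 for pericytes and endothelium. The library labelled cKO 5 had the highest sum for mesenchyme, mesothelium, endothelium, pericytes, macrophages and erythroid cells, and it was also the highest for Fbln1, Fbln2, Fbln5 and Emilin1. The part of these cell types in the values of those genes was not tested.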

How the data were processed

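The authors deposited raw counts of reads per gene without normalization, together with the summed exon length of each gene. The submitters' processing notes name STAR, featureCounts and GRCm38. The sources used here give neither versions nor the strand setting, the annotation release or how reads matching several places were treated. The 10 members and the gene lists were chosen with earlier results of these data known.

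The table held 46517 genes, 46005 of them with a symbol. After filterByExpr, 16469 genes were fitted with edgeR 4.0.16 (R 4.3.3), using TMM factors and group as the only term over 8 libraries. Quasi-likelihood F tests were adjusted by Benjamini-Hochberg over all genes at 0.05. The SE is the log2 fold change divided by the square root of F, without its sign, and intervals are at 95%. With a biological coefficient of variation of 15.2%, scatter between libraries exceeds counting error except in low genes. RPKM came from the deposited exon lengths and is another unit than the counts. It entered only the 4 ratio tests, where length shifts every library alike and leaves the p unchanged. Correlations used log2 CPM with a prior count of 2. The code was tested on simulated counts.

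Genes named were Ptk7, the 10 members, the 2 genes of each of 8 pathway lists with the smallest p, and the 3 genes most like Eln, Fbn1 and Mfap5 among those with a mean of at least 10 CPM. Alternatives were DESeq2 size factors, no filter, DESeq2 1.42.0, a block on the replicate number and leaving out each library. Added after seeing the data were DESeq2 without the library labelled cKO 5, offsets in 20 bins of GC content (GENCODE M21 transcripts, or coding sequence), and coding transcript length. The plots used matplotlib 3.10.9 in Python 3.11.15.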

Additional observations from a re-analysis of the deposited data

Results flagged for a closer look

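Ptk7 in the library labelled cKO 5 lay far from the others of its group, at 194 CPM where those labelled cKO 1, 2 and 4 had 7.33 to 12.5 CPM. Its gap to the nearest of them was 0.972 of the group's range, above Dixon's critical value for 4 samples. It was 1 of 30 groups of values checked, and chance flags about 1 in 20 of them. In that library Fbn1, Fbn2, Fbln1, Fbln2, Fbln5 and Emilin1 had the highest values among the libraries labelled cKO.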

How the results depend on the processing

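No alternative made any of the 10 genes pass an adjusted p: of 150 values over genes and alternatives, 0 passed and 117 kept their direction. Outside the DESeq2 test the alternatives called at most 7 genes of the whole table, so 0 members there says little about the 10 genes. DESeq2 called 186 of 16469 genes, and without the library labelled cKO 5 it called 188 of 16697. The count at an unadjusted p under 0.05 (1, Fbln2) ranged from 0 to 1 when single libraries were left out. It was 0 when control 3, 4 or 6 was left out, and when the library labelled cKO 2 or 5 was. It was also 0 under DESeq2 without the library labelled cKO 5, with both GC offsets and with a replicate block. Over all genes the share in the settings with 0 ran from 7.06% to 9.47%, so 0 and 1 of 10 are both near it. Directions turned mostly where a difference was near 0, and the cause was not tested.

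Same-numbered libraries (1 and 4) did not deviate together more than others did. Their r was -0.0916 and 0.0226, within the -0.113 to 0.154 of differently numbered libraries. Whether same-numbered libraries share a litter is not in the labels and was not tested. A replicate block over them left 1 residual degree of freedom. Under the block the log2 fold change was -0.085 for Eln, -0.072 for Fbn2, -0.11 for Emilin1, 0.017 for Mfap2 and 0.0035 for Fbln2 (0.29 without the block), and the log2 ratio of Eln to Fbn1 differed by -0.13. DESeq2 without the library labelled cKO 5 gave -0.015 for Fbn1, -0.067 for Fbn2 and 0.0071 for Mfap2. Offsets from transcript GC gave -0.0060 for Fbn2, 0.033 for Fbln5 and -0.032 for Mfap4, and those from coding GC gave -0.0057, 0.016 and -0.058.

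Leaving out each library in turn moved the log2 fold change from -0.051 to 0.14 for Fbn1, from -0.081 to 0.11 for Fbn2 and from -0.092 to 0.025 for Fbln1. The range was -0.14 to 0.10 for Fbln5, -0.052 to 0.023 for Mfap2, -0.049 to 0.075 for Mfap4 and -0.26 to -0.012 for Mfap5, the last without the library labelled cKO 4. It was -0.061 to 0.00015 for the log2 ratio of Fbn2 to Fbn1. For the ratio of Eln to Fbn1 it was -0.094, without control 3, to 0.61.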
